A study of Mus musculus with 12 samples.

Results

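The genes described here are 10 genes of Nodal signalling and of the epiblast state, Nodal, Lefty1, Lefty2, Tdgf1, Gdf3, Foxd3, Otx2, Pou3f1, Fgf5 and Fgf4. They were chosen by name from a table of 23427 genes, and all 10 were found in it. Each has 1 RPKM value (read density per gene length and library size) per RNA library, or a blank where it lay under the table's listing floor. The libraries came from cardiomyocytes made in vitro from the mouse embryonic stem cell line CM7/1, in a Hey1 version and a Hey2 version with doxycycline-inducible expression of that gene. Uninduced controls carry the inducible gene too, and induced cells received 1000 ng/ml doxycycline for 48 h. The groups are thus uninduced Hey1 line, induced Hey1 line, uninduced Hey2 line and induced Hey2 line, with 1 library each and no replicate of any group. The part that doxycycline itself or the separate culture of each line has in a difference cannot be told apart from that of Hey1 or Hey2. The 8 chromatin immunoprecipitation samples of the series were not analysed here.

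Nodal is a TGF-beta family ligand that signals through activin receptors and the transcription factors Smad2 and Foxh1, and it needs the membrane-bound co-receptor Cripto, which Tdgf1 encodes. It switches on its own gene and those of its secreted inhibitors, Lefty1 and Lefty2, so the pathway limits itself. In the early embryo it keeps the epiblast pluripotent and then directs mesoderm and endoderm formation. Cells leaving the naive state turn on Fgf5, Otx2 and Pou3f1, and Fgf4 provides the FGF signal that permits this exit.

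The libraries held between 2296145 and 4182141 reads in listed genes, with medians from 74 to 117 reads per listed gene, as recovered from the steps of the values. Every ratio below compares 1 library with 1 other, and its 95% interval covers counting error only. Hey1 stood at 0.735 RPKM in uninduced and 8.59 RPKM in induced cells of its line, and Hey2 was blank in uninduced and at 6.59 RPKM in induced cells of its own. The cardiomyocyte label held unevenly. The 13 cardiomyocyte markers, such as the cardiac troponin gene Tnnt2 and the myosin gene Myh6, summed to 18104.2 and 19227.9 RPKM in the uninduced and induced Hey1 line, and to 1183.3 and 1226.2 RPKM in the Hey2 line. The 8 core pluripotency genes went the other way, with sums of 21.98 and 17.51 RPKM against 273.3 and 252.2 RPKM.

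Promoter windows of RefSeq (build GRCm38.p6, from 250 bases before to 50 bases after a start site) were at hand for 6 of the members, Foxd3, Fgf5, Fgf4, Tdgf1, Nodal and Otx2, the last with several start sites and 9 windows in all. The RPKM table itself was made on mm9. Hairy-related repressors such as Hey1 and Hey2 are known to bind E-box type sequences, so the letters CACGTG and CACGCG were searched on both strands. Foxd3 was the only one of the 6 with either, and it held both, starting 217 and 227 bases before the start site and not overlapping. Of 32851 windows of the same length over all genes, 7.15% held CACGTG and 9.27% held CACGCG. These shares are not matched for base content. The Foxd3 window is 65.7% G and C, where the median of all windows is 52.7%, and those of Fgf5 (68.3%) and Fgf4 (69.7%) held neither. The octamer ATGCAAAT (1.74% of windows) and the letters AATCCACA, a Foxh1 core (0.855%), were found in none of the 6. The short Smad core CAGAC, held by 49.6% of windows, was found in Tdgf1, starting 113 bases before the start site. A match describes these letters and not binding, and no match says nothing of the factor. The windows shown are those of Foxd3, the member with the lowest induced to uninduced ratio in the Hey2 line, of Otx2, the other member whose interval there lay below 1 (the window farthest upstream), and of Tdgf1, the most abundant member in that line. Capitals mark CACGCG and CACGTG. Foxd3 is shown at chr4:99656049-99656348 (plus strand), Otx2 at chr14:48667595-48667894 (minus strand) and Tdgf1 at chr9:110946109-110946408 (minus strand), all 5′ to 3′ along the gene.
Foxd3: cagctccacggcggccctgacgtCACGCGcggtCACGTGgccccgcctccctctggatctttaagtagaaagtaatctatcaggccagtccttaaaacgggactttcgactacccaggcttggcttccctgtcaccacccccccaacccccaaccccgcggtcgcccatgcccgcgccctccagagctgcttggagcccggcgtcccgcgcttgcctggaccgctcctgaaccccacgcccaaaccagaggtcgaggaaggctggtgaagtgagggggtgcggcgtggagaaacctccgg
Otx2: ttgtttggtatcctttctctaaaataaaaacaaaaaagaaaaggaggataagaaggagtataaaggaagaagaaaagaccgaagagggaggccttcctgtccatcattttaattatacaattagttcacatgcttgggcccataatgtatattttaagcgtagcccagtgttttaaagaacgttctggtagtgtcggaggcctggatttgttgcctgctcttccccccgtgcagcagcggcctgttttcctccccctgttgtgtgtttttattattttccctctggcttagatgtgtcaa
Tdgf1: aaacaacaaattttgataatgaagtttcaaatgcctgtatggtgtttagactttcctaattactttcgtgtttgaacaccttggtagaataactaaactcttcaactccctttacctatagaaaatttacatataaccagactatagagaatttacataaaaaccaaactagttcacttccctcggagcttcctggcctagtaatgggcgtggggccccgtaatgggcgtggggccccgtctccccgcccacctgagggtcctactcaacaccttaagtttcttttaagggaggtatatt

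Of the 10 members, 5 (Nodal, Tdgf1, Gdf3, Otx2 and Fgf4) had a value in all 4 libraries. The other 5 (Lefty1, Lefty2, Foxd3, Pou3f1 and Fgf5) had a value in both Hey2-line libraries and were blank in both Hey1-line libraries, a pattern that 12.0% of the 15371 genes with any value showed. Blank means fewer than about 10 reads in the Hey1 line, and not zero. In RPKM the members summed to 6.43 and 5.49 in the uninduced and induced Hey1 line, and to 184.8 and 178.5 in the Hey2 line. In these bulk samples, fewer cells of a type and less RNA per cell cannot be told apart.

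**Figure D1:**
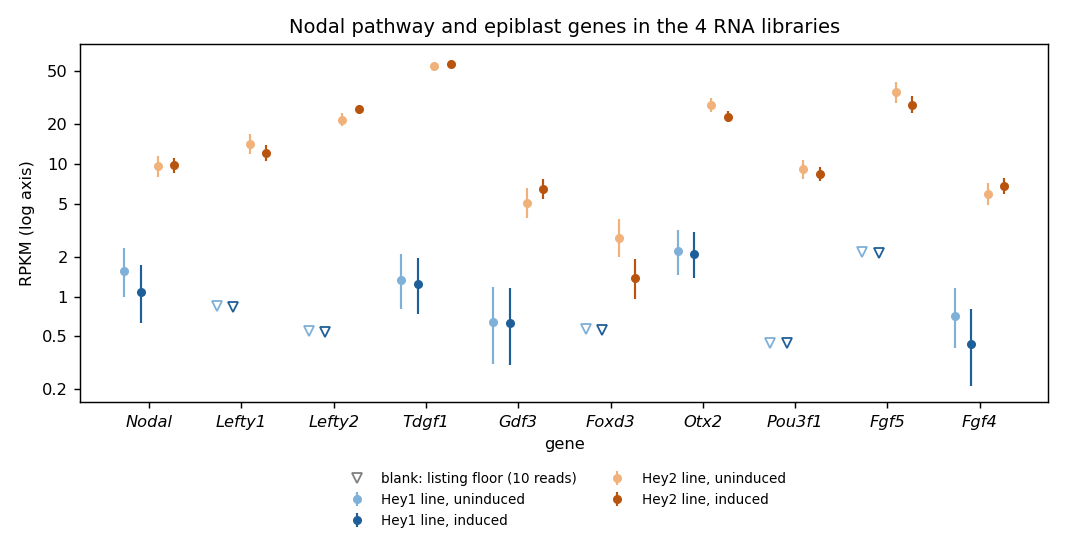
RPKM of each member (log axis) in the 4 libraries, 1 point per library with its exact 95% Poisson interval of counting error; open triangles mark the listing floor of 10 reads where the table is blank. All 10 genes lay higher in the Hey2-line libraries, from 1.38 RPKM for Foxd3 to 57.0 RPKM for Tdgf1 after induction, while no listed Hey1-line value passed 2.20 RPKM.

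The ligand genes come first. Nodal stood at 1.55 RPKM in the uninduced and 1.08 RPKM in the induced Hey1 line, from 24 and 17 reads, and at 9.63 and 9.76 RPKM in the uninduced and induced Hey2 line, from 116 and 212 reads. Both Hey2-line libraries were thus above both Hey1-line libraries, with intervals that did not overlap. Without induction Nodal was 6.22-fold higher in the Hey2 line (95% interval 3.98 to 10.1), and with induction 9.02-fold (5.50 to 15.8). Gdf3, a related TGF-beta family ligand, stood at 0.641 and 0.632 RPKM in the Hey1 line, from 10 reads in each library and so at the listing floor. In the Hey2 line it stood at 5.11 and 6.49 RPKM. Its ratio between the lines was 7.98 (4.06 to 17.5) without and 10.3 (5.42 to 21.9) with induction.

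Tdgf1 was the most abundant member in the Hey2 line and showed the highest ratio of the 5 with 4 values. It stood at 1.33 and 1.25 RPKM in the uninduced and induced Hey1 line, from 19 and 18 reads, and at 54.2 and 57.0 RPKM in the Hey2 line, from 601 and 1139 reads. Only 3.05% of listed genes lay above it in the uninduced Hey2-line library, against 82.7% in the uninduced Hey1-line library. It was 40.7-fold higher in the Hey2 line without induction (25.8 to 68.1) and 45.7-fold with it (28.8 to 77.5). These intervals lay wholly above those of Nodal, the ligand it serves. RefSeq lists pseudogenes named after Tdgf1, and how reads with several matches were assigned is not given in the sources used here, so its level is uncertain to that extent.

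The Nodal inhibitors had no value in the Hey1 line. Lefty1 stood at 14.1 and 12.1 RPKM in the uninduced and induced Hey2 line, against a Hey1-line floor of 0.843 and 0.831 RPKM, and was thus at least 16.7-fold and 14.5-fold higher. Lefty2 stood at 21.5 and 25.9 RPKM against floors of 0.549 and 0.542 RPKM, at least 39.1-fold and 47.8-fold higher. Lefty2 exceeded Lefty1 in both Hey2-line libraries, 1.52-fold per length without induction (1.24 to 1.89) and 2.14-fold with it (1.83 to 2.52), intervals that overlap narrowly. The genes are close relatives on chromosome 1, and RefSeq places the long non-coding RNA gene Gm39715 across Lefty1, so the assignment of their reads is uncertain. Summed, Lefty1 and Lefty2 stood at 35.6 and 38.0 RPKM.

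Of the epiblast transcription factors, Otx2 was the most abundant and Foxd3 the least. Otx2, a homeobox gene needed for the exit from naive pluripotency and for the forebrain, stood at 2.20 and 2.09 RPKM in the Hey1 line, from 28 and 27 reads, where it was the highest listed member in both libraries. In the Hey2 line it stood at 27.6 and 22.7 RPKM, 12.6-fold (8.52 to 19.3) and 10.9-fold (7.36 to 16.7) above the Hey1 line. Pou3f1, a POU factor of the primed epiblast and of neural cells, stood at 9.07 and 8.45 RPKM in the Hey2 line, at least 20.2-fold and 19.1-fold above the Hey1-line floor. Foxd3, a forkhead repressor of epiblast and neural crest, was the lowest member in the Hey2 line, at 2.78 and 1.38 RPKM from 38 and 34 reads. Its bounds were the smallest for that reason, at least 4.89-fold without and 2.46-fold with induction.

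The FGF ligand genes went the same way. Fgf5, the classical marker of primed epiblast, stood at 34.7 and 28.0 RPKM in the uninduced and induced Hey2 line and was the second most abundant member in each. Against Hey1-line floors of 2.16 and 2.13 RPKM it was at least 16.1-fold and 13.2-fold higher. Its recovered gene model of 626 bases is the shortest of the 10, which makes the floor high, and as Fgf5 is listed in 2 libraries only, its true length may be a multiple of this. Fgf4, which inner cell mass and epiblast cells secrete, stood at 0.714 and 0.440 RPKM in the Hey1 line, from 16 and 10 reads, and at 5.97 and 6.81 RPKM in the Hey2 line, 8.37-fold (4.92 to 15.2) and 15.5-fold (8.25 to 32.7) higher.

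**Figure D2:**
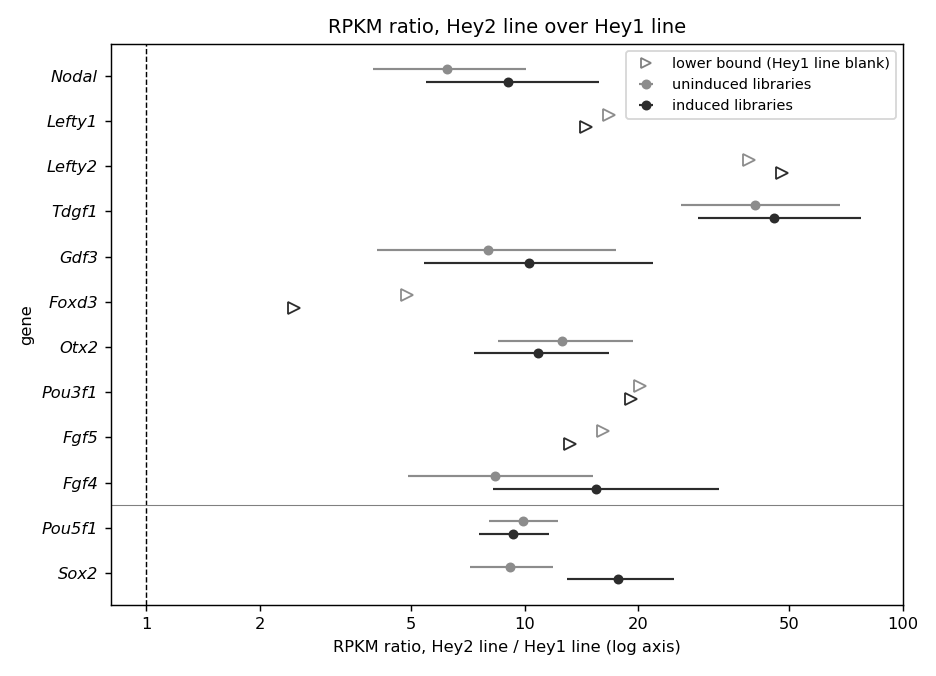
RPKM of the Hey2 line over the Hey1 line (log axis), for uninduced and induced libraries, with 95% intervals of counting error; open triangles are lower bounds where the Hey1 line is blank, and Pou5f1 and Sox2 are shown under the line for reference. All 10 members lie to the right of 1; the intervals of Tdgf1 and the bounds of Lefty2 lie above the intervals of Pou5f1 and Sox2 in both comparisons, and with induction the bounds of Lefty1, Pou3f1 and Fgf5 lie inside that of Sox2.

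Taking blanks of the Hey1 line at their floor, 10 of 10 members passed 2-fold towards the Hey2 line on the log2(RPKM + 1) scale without induction, which 21.4% of 11966 genes did, and 9 of 10 with induction, which 23.9% of 12081 genes did. The exception was Foxd3, whose bound came to 0.61 on that scale. Lefty1, Lefty2, Foxd3, Pou3f1, Gdf3 and Fgf4 reached the required mean of 1 RPKM only through the Hey2 line, where they are high, so these counts describe the members and support nothing further. Among genes listed in both libraries whose mean reached 1 RPKM, 20.1% of genes passed 2-fold in this direction without and 22.9% with induction. The 5 members listed there all did, with the same limit for Gdf3 and Fgf4. Over all compared genes the median difference was 0.22 and 0.27 on the log2(RPKM + 1) scale. The split of genes past 2-fold was 2251 higher and 1444 lower without induction. Scaled by median ratios it was 1695 and 1770, and by upper quartiles 1782 and 1730. With induction the split was 2547 higher and 1399 lower as deposited, 1782 and 1935 by median ratios, and 1909 and 1813 by upper quartiles. Pou5f1, which encodes the pluripotency factor Oct4, was 9.88-fold higher in the Hey2 line without induction (8.06 to 12.2) and 9.34-fold with it (7.58 to 11.6). Sox2, its partner factor, was 9.15-fold (7.15 to 11.9) and 17.7-fold higher (12.9 to 24.8). The interval of Tdgf1 and the bounds of Lefty2 lay above the intervals of both genes in both comparisons. With induction the bounds of Lefty1, Pou3f1 and Fgf5 lay inside the interval of Sox2. The bounds do not carry the counting error of the Hey2-line value.

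Otx2, Pou3f1 and Foxd3 also mark neural tissue or neural crest. Of 12 early neuroectoderm genes, 4 and 5 were listed in the uninduced and induced Hey2 line, with sums of 2.95 and 1.67 RPKM. In the Hey1 line En1 alone was listed, at 0.794 and 1.46 RPKM. The defining genes Sox1 and Pax6 stood at 0.388 and 0.239 RPKM and at 0.284 and 0.157 RPKM in the Hey2 line. Six3, Lhx5, Lhx2, Zic1, Rax and Neurog2 were blank in all 4 libraries. Of 8 neural crest genes, 3 and 4 were listed in the Hey2 line (sums of 4.33 and 4.66 RPKM) and 3 and 2 in the Hey1 line (3.18 and 1.75 RPKM). Sox10, a defining crest marker, stood at 0.321 and 0.213 RPKM in the Hey2 line, and Pax3 and Pax7 were blank throughout. Most of each sum came from Ets1, at 3.33 and 3.58 RPKM in the Hey2 line against 1.92 and 1.27 RPKM in the Hey1 line. Sox9 was divided (0.671 and 0.395 against 0.587 and 0.482 RPKM), and Snai2 was listed in the uninduced Hey1 line alone, at 0.672 RPKM. Lefty1 is also made by visceral endoderm. Of 11 extraembryonic and visceral endoderm markers, 10 were listed in each Hey2-line library and 5 and 6 in the Hey1-line libraries, with sums of 42.0 and 40.6 against 91.2 and 76.0 RPKM. The sums hide markers that went opposite ways. Without induction 5 markers passed 2-fold higher in the Hey2 line with blanks at their floor, as 21.4% of 11966 genes did. Of these, Sox17, Sox7, Foxa2 and Cubn reached the mean of 1 RPKM only through the Hey2 line, so this count supports nothing further. In the other direction 2 markers passed lower, as did 1444 of the 11175 genes compared. Afp (1.42 and 0.970 against 58.5 and 42.0 RPKM) and Gata6 (8.28 and 7.27 against 27.4 and 28.8 RPKM) were lower in the Hey2 line. Dab2 (14.9 and 15.4 against 1.72 and 1.76 RPKM) and Cubn (5.21 and 5.92 against 0.346 and 0.236 RPKM) were higher there. Sox17, Sox7, Amn and Apob were listed in the Hey2 line alone, and Apoa1 was blank in all libraries. The 6 neuron markers summed to 18.2 and 19.8 RPKM in the Hey1 line and 38.9 and 40.2 RPKM in the Hey2 line, and were divided too. Stmn2 was higher in the Hey2 line (32.8 and 33.8 against 1.42 and 1.05 RPKM) and Tubb3 lower (4.14 and 4.14 against 16.6 and 18.7 RPKM). All 13 cardiomyocyte markers were past 2-fold lower in the Hey2 line without induction (median −3.76). The part of any of these cell types in the members' levels was not tested.

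The order of the members, compared per length, was nearly the same in both Hey2-line libraries. It ran Tdgf1, Fgf5, Otx2, Lefty2, Lefty1, Nodal, Pou3f1, Fgf4, Gdf3 and Foxd3 without induction, and after induction only Otx2 and Lefty2 changed places. The intervals of Fgf5 and Otx2, of Nodal and Pou3f1, and of Fgf4 and Gdf3 overlapped in the uninduced library. Overlapping intervals do not show equal levels, and the ratios of these neighbours were not tested. After induction the neighbours from Fgf5 to Otx2 and from Lefty1 to Gdf3 overlapped each to the next. In the Hey1 line every neighbouring pair of the 5 listed members overlapped, from Otx2 at the top to Gdf3 or Fgf4 at the bottom. The span from highest to lowest member was 19.5-fold in the uninduced and 41.3-fold in the induced Hey2 line, the wider span coming with the lower Foxd3 value.

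Induction of Hey2 was compared next. Against the uninduced Hey2 line, 5 members were higher and 5 lower. Their median was −0.04 in log2(RPKM + 1), and that of all 11949 compared genes −0.01. No member passed 2-fold on that scale, which 0.117% of genes did. The interval of the ratio lay above 1 for 1 member, Lefty2, where it did for 7.88% of genes, and below 1 for 2 members, Foxd3 and Otx2, where it did for 6.72% of genes. At 10 members, counts of 1 and 2 are not set apart from these shares.

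Foxd3 went from 2.78 to 1.38 RPKM, 2.02-fold lower (1.24 to 3.30), which the added 1 RPKM reduces to −0.67 on the log2(RPKM + 1) scale. Otx2 went from 27.6 to 22.7 RPKM, 1.22-fold lower (1.04 to 1.42). Lefty2 went from 21.5 to 25.9 RPKM, with a ratio of 1.21 (1.05 to 1.39). The remaining differences lay within counting error. Fgf5 was 1.24-fold lower (0.979 to 1.57), Lefty1 1.17-fold lower (0.929 to 1.46) and Pou3f1 1.07-fold lower (0.875 to 1.31). Gdf3 had a ratio of 1.27 (0.936 to 1.74), Fgf4 of 1.14 (0.898 to 1.46), Tdgf1 of 1.05 (0.951 to 1.16) and Nodal of 1.01 (0.804 to 1.28). The intervals of these 7 members all hold 1.

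**Figure D3:**
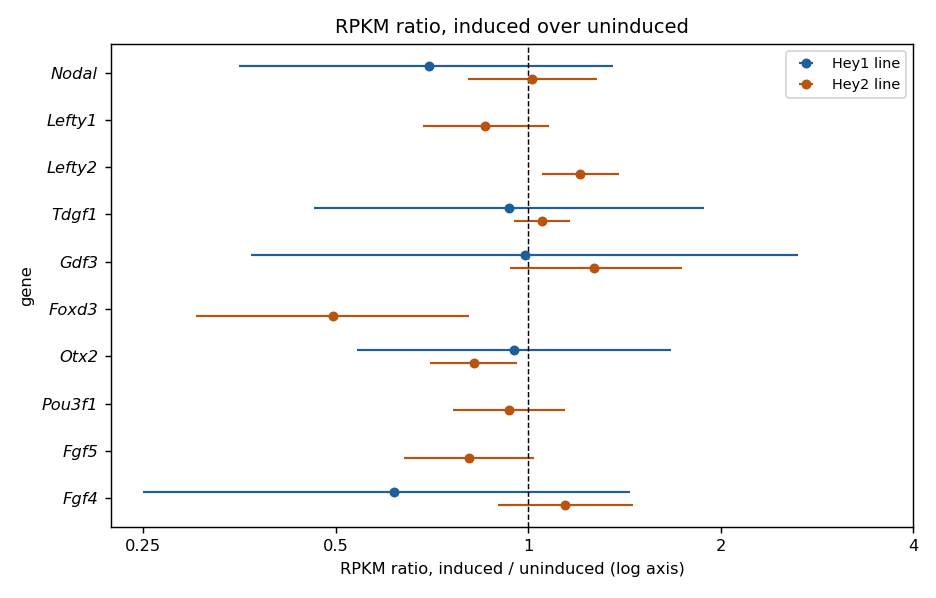
RPKM ratio of induced over uninduced cells (log axis) for each member, with 95% intervals of counting error; Hey1-line points are missing for the 5 members blank there. In the Hey2 line only Foxd3 (0.496) and Otx2 (0.821) lie below 1 and Lefty2 (1.21) above 1 with their whole interval, and every Hey1-line interval holds 1.

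Other genes of the pathway were read from lists, where 7.88% of all compared genes had the interval above 1 and 6.72% below 1. Of 12 compared receptors, convertases and Smads, 8 were higher and 4 lower after Hey2 induction (median 0.03), with intervals above 1 for the activin receptor gene Acvr2b, 1.5-fold (1.002 to 2.29), and the convertase gene Furin, 1.19-fold (1.04 to 1.36), and below 1 for 0. Of 12 antagonists and corepressors, 6 were higher and 6 lower (median −0.01). Cer1, a secreted Nodal inhibitor, was 1.88-fold lower (1.24 to 2.87) and Fst, which binds activin, 1.77-fold lower (1.43 to 2.21), while the inhibitory Smad7 was 1.58-fold higher (1.18 to 2.15) and Nomo1 1.23-fold higher (1.08 to 1.41). Of 14 FGF receptor and feedback genes, 7 were higher and 7 lower (median −0.07). The ERK phosphatase gene Dusp6 was the one with an interval off 1, 1.21-fold lower (1.04 to 1.4).

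Lists of neighbouring developmental states were read in the same way. Over all compared genes the median was −0.005, with the interval above 1 for 7.88% and below 1 for 6.72%. Of 10 Nodal-responsive streak and endoderm genes, 8 were lower after Hey2 induction (median −0.32), 4 with the interval below 1 and 0 above. These were Mixl1, 2.72-fold lower (1.94 to 3.85), Eomes, 1.97-fold (1.60 to 2.45), Wnt3, 1.60-fold (1.06 to 2.42), and T, 1.24-fold (1.03 to 1.48). Mixl1 also passed 2-fold on the log2(RPKM + 1) scale, which 0.117% of genes did in either direction. Of 18 formative and primed epiblast genes, 13 were lower (median −0.08), 7 with the interval below 1 and 0 above. Fgf15 was 1.73-fold lower (1.12 to 2.66), Lef1 1.66-fold (1.09 to 2.53), the kinase gene Pim2 1.56-fold (1.42 to 1.70) and the de novo methyltransferase gene Dnmt3b 1.45-fold (1.36 to 1.54). Of 14 naive pluripotency genes, 12 were higher (median 0.30), 7 with the interval above 1 and 0 below, among them Nr0b1 at a ratio of 1.99 (1.03 to 4.14) and the transcription factor genes Tfcp2l1 (Tcfcp2l1 in the table) at 1.73 (1.39 to 2.17), Esrrb at 1.58 (1.32 to 1.92) and Klf5 at 1.55 (1.15 to 2.10). Core pluripotency genes were divided, with 3 higher and 5 lower (median −0.05), and Pou5f1 1.18-fold (1.08 to 1.30) and Lin28a 1.10-fold lower (1.03 to 1.19). In the same libraries 10 of 13 cardiomyocyte markers were higher (3 intervals above 1) and 6 of 8 fibroblast markers (5 intervals above 1, sums of 67.0 and 84.4 RPKM). Their part in the differences was not tested.

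**Figure D4:**
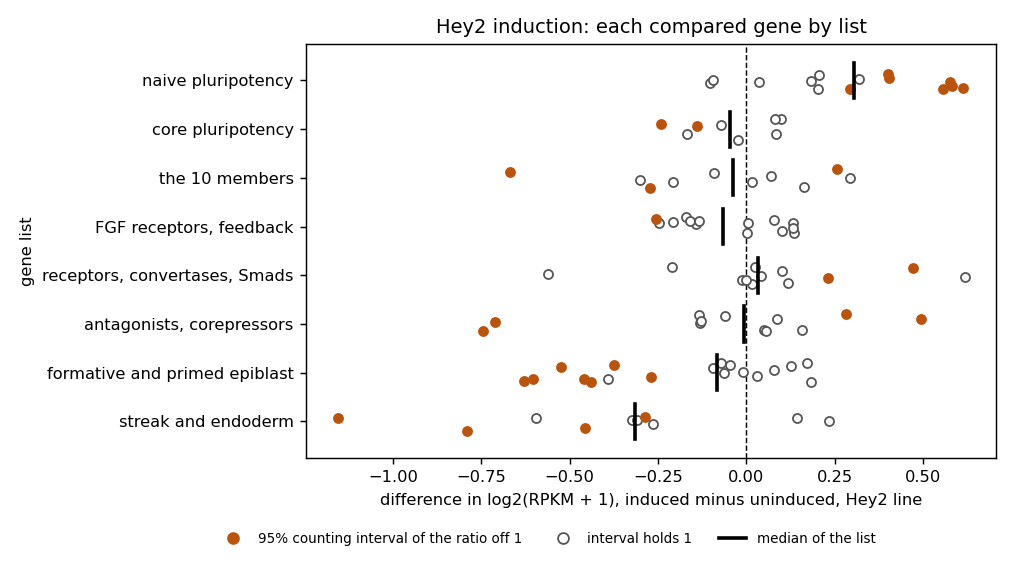
Difference in log2(RPKM + 1), induced minus uninduced Hey2 line, for each compared gene of 8 lists, 1 point per gene with vertical jitter; filled points have a 95% counting interval of the ratio off 1 and bars are list medians. Naive pluripotency genes sit mostly to the right (median 0.30), streak and endoderm genes mostly to the left (median −0.32), and the 10 members on both sides of 0.

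Induction of Hey1 could be read for 5 members only, all at 28 reads or fewer per library. Nodal went from 1.55 to 1.08 RPKM, 1.43-fold lower (0.737 to 2.84), and Fgf4 from 0.714 to 0.440 RPKM, 1.62-fold lower (0.692 to 4.0). Tdgf1 was 1.07-fold lower (0.532 to 2.16), Otx2 1.05-fold lower (0.597 to 1.85) and Gdf3 1.01-fold lower (0.379 to 2.71), where Otx2 and Gdf3 turn to higher under median ratio scaling and Gdf3 under upper quartile scaling too. All 5 intervals hold 1, so a difference was not detectable at this depth. Of the 5, Nodal, Tdgf1 and Otx2 met the mean of 1 RPKM, and none of these passed 2-fold (0.160% of 10648 genes did) or had an interval above 1 (5.11% of genes) or below 1 (13.7%). The split of genes past 2-fold was 4 higher and 13 lower as deposited, 5 and 6 by median ratios, and 5 and 10 by upper quartiles. Of 10 naive pluripotency genes compared, 9 were lower (median −0.17, against −0.06 for all genes), but 1 interval lay below 1, that of Zfp42 at 1.60-fold lower (1.16 to 2.21). The streak gene Mixl1 was 1.56-fold lower (1.07 to 2.30).

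Between the lines the receptor and antagonist lists were divided. Genes compared are those listed in both libraries with a mean of at least 1 RPKM, so Fst, Cer1 and, without induction, Foxh1 stand outside the counts of genes compared. Below that mean without induction were Pcsk6, Gdf1 and Acvr1c. Their ratios of Hey2 to Hey1 line were 3.17 (1.70 to 6.23), 2.30 (1.15 to 4.78) and 0.819 (0.269 to 2.31), in this order. Of 10 receptors, convertases and Smads compared without induction, 7 were higher and 3 lower in the Hey2 line (median 0.19), and of 11 with induction 9 and 2 (median 0.56). Foxh1, the Smad partner of Nodal signalling, was blank in the uninduced Hey1 line and stood at 15.02 RPKM in the uninduced Hey2 line, at least 15.2-fold higher, and at 1.17 against 12.8 RPKM with induction, 11.0-fold higher (6.13 to 21.6). Acvr2b was 2.92-fold higher in the Hey2 line without induction (1.55 to 5.76) and 5.12-fold with it (2.85 to 9.97). By contrast Furin stood lower in the Hey2 line, by 6.34-fold without induction (5.64 to 7.15) and 5.45-fold with it (5.004 to 5.94). Inhba, an activin subunit gene, stood 5.58-fold lower without induction (2.96 to 11.6) and 2.02-fold lower with it (1.32 to 3.12). Of 10 antagonists and corepressors compared, 4 were higher and 6 lower both without (median −0.43) and with induction (median −0.20). Without induction Fst was at least 21.8-fold and Cer1 at least 6.31-fold higher, Tgif1 was 5.93-fold (4.63 to 7.69) and Skil 3.99-fold higher (3.37 to 4.72). Dand5, a secreted Nodal inhibitor, was 2.98-fold lower (1.55 to 6.18) and Smad7 2.57-fold lower (1.92 to 3.49). Of 10 Nodal-responsive streak and endoderm genes, 7 were listed in the Hey2 line alone. With blanks at the floor 7 passed 2-fold higher without induction and 6 with it, where 21.4% and 23.9% of genes did. Without induction T was at least 26.6-fold and Eomes at least 23.9-fold higher, while Mixl1, Gsc and Lhx1 did not pass 2-fold. Those blank in the Hey1 line that passed reached the mean of 1 RPKM only through the Hey2 line. Of 15 FGF receptor and feedback genes compared without induction, 13 were higher in the Hey2 line, with all 13 intervals above 1 and 8 past 2-fold. Over all 11175 genes compared there, 4966 had the interval above 1, 3177 had it below 1, and 2251 passed 2-fold higher. Spry1 stood at 5.95-fold (3.96 to 9.22), the ETS factor gene Etv5 at 5.39-fold (4.35 to 6.75), Spred1 at 3.27-fold (2.67 to 4.04) and the ETS factor gene Etv4 at 3.18-fold (1.77 to 5.96). Of 11 naive genes compared without induction, 4 passed 2-fold higher and 0 lower (median 0.41). Of 12 formative and primed genes, 8 passed 2-fold higher and 3 lower (median 2.0), led by Dnmt3b at 0.521 and 71.4 RPKM, 137.2-fold higher (85.4 to 236.0). Of 7 core pluripotency genes, 6 passed 2-fold higher and 0 lower (median 3.05), among them Lin28a at 61.2-fold (40.9 to 95.9). Hey1-line blanks were also taken at their floor, as for the members. Without induction 13 of 18 formative, 5 of 14 naive and 7 of 8 core genes then passed 2-fold higher. So did 5 of 12 antagonist, 2 of 14 receptor and 8 of 16 FGF genes, where 21.4% of genes did. As for the members, these counts describe the lists and support nothing further. Etv5 is counted in the FGF and the formative list. Sox17 and Foxa2 are counted in the streak and endoderm list and among the extraembryonic and visceral endoderm markers.

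Last, the genes with the most similar profile were looked up for the 5 members with 4 values, as the smallest Euclidean distance of log2(RPKM + 1) centred on each gene's mean, over 10733 genes and 4 libraries. With 2 libraries per line, this distance rests mainly on the size of the line difference. The gene nearest to Otx2 was Pou5f1 (distance 0.109), which stood at 9.93, 8.87, 98.1 and 82.8 RPKM in uninduced and induced Hey1 and Hey2 lines. Gldc (0.168) and Larp7 (0.175) came next. Those nearest to Tdgf1 were Lama1 (0.148), a laminin chain gene, the epithelial adhesion gene Epcam (0.163, Tacstd1 in the table) and Cdh1 (0.255), which encodes E-cadherin. For Nodal they were Pls3 (0.045), Cenpu (0.054, Mlf1ip in the table) and Zdbf2 (0.077), for Fgf4 Pls3 (0.084), Elf3 (0.094) and Cenpe (0.094), and for Gdf3 Jade3 (0.065), Mfsd13a (0.077) and Jade2 (0.086), listed as Phf16, Tmem180 and Phf15.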

How the data were processed

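RNA was measured in 4 libraries, 1 per combination of line and doxycycline treatment. The authors deposited 1 table of RPKM values with 1 column per library, and a signed fold per line, a score that equals the ratio of induced to uninduced RPKM or minus its inverse in all 11917 and 14053 genes that have it (relative tolerance 1e-06), per the file headers and the values. Per the submitters' processing notes, the build was mm9, and Bowtie 1.0, DESeq and MACS 1.4.1 are named with no role. Which annotation and read counter were used, and how strand and multiply matching reads were handled, is not given in the sources used here.

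Whole reads were recovered from the RPKM. A divisor per library was searched at which values are whole reads at a whole gene length, which gave 7.4, 7.5, 5.75 and 10.375 Mreads for the uninduced and induced Hey1 and Hey2 lines. For the first 3 libraries the best-scoring divisors were multiples of these (14.8, 15.0 and 17.25), and the smaller ones were used because nearly all reads then came out as multiples of 2 or 3 at lengths that are not. The larger divisors would give more reads and narrower intervals. Of 15371 genes with a value, 15363 (99.9%) came out whole in all their listed libraries at a length up to 25000 bases, with a tolerance of 3e-06 reads plus 1e-09 of the reads. The smallest such length was used, raised to a multiple for 634 genes so that no reads fell under the listing floor (10 reads in the Hey1 line, 5 in the Hey2 line). True read numbers may be multiples of these for genes listed in few libraries, which would narrow their intervals and raise their bounds. For the intronless genes Foxd3 and Pou3f1 the recovered lengths, 2373 and 3010 bases, equal the RefSeq gene lengths. RPKM carry exact Poisson intervals and ratios exact conditional binomial intervals, at 95%. These cover counting error only, since PCR copies are not independent molecules.

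With 1 library per group no test between groups was run. A gene was compared if listed in both libraries with their mean at 1 RPKM or more, and called past 2-fold on the log2(RPKM + 1) scale, which understates changes of low genes, or where the interval of the ratio lay off 1. The named genes are all members, at most 4 genes per list in each comparison (those with the largest ratio among intervals off 1), defining markers, and the 3 nearest profiles of each member with 4 values. Members and lists were chosen with earlier results of these data known. Symbols of 11 list genes were matched through Entrez identifiers to RefSeq's GRCm38.p6 table. Python 3.11.15, NumPy 2.4.6, pandas 2.3.3, SciPy 1.17.1 and Matplotlib 3.10.9 were used. The recovery of lengths and the intervals were tried on simulated data, modelled on genes listed in all 4 libraries and with the divisors and floors taken as given. The search for divisors and the genes listed in the Hey2 line alone were not covered by it.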

Additional observations from a re-analysis of the deposited data

Results flagged for a closer look

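The 2 inductions went opposite ways for 4 members, which is what singled these out. The difference was not tested, since each induction is 1 pair of libraries, and in every case both intervals of the ratio hold 1. On the log2(RPKM + 1) scale, induced minus uninduced, Nodal differed by −0.292 for Hey1 and 0.017 for Hey2 induction. Tdgf1 differed by −0.055 and 0.07, Gdf3 by −0.008 and 0.293, and Fgf4 by −0.251 and 0.164, in the same order. The Hey1-line values rest on 10 to 24 reads per library, and the sign of Gdf3 there turns under both other scalings.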

How the results depend on the processing

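No paired analysis was possible because each group holds 1 library, so no replicate could be left out either. Counts of genes past 2-fold were 17 for the Hey1 and 14 for the Hey2 induction. They became 79 and 69 at a pseudocount of 0.1 RPKM, 64 and 56 with blank cells read as 0, 9 and 9 at a mean of at least 5 RPKM, and 281 and 223 at 1.5-fold. Median ratio scaling gave 11 for the Hey1 induction. Between the lines, 3695 genes without and 3946 with induction became 6306 and 6510 at 1.5-fold. The remaining alternatives stayed within 1.5 times of these counts. Blank cells at the listing floor was an alternative chosen after seeing the data. Of 25 member differences, all 25 stayed within counting error of the reported value under either scaling. At a pseudocount of 0.1 RPKM 22 did, and Fgf4 moved to −0.59 for the Hey1 induction and to 2.90 and 3.68 between the lines without and with induction. The signs of Gdf3 and Otx2 turned for the Hey1 induction (0.03 and 0.01 by median ratios, and 0.02 for Gdf3 by upper quartiles). Median ratio scaling shifts the line differences by −0.22 without and −0.31 with induction (log2). Reads limit the Hey1 line most: its 5 listed members have 10 to 28 reads.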

Other observations

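Sox2, a core pluripotency factor, stood at 4.02 RPKM in the uninduced and 2.23 RPKM in the induced Hey1 line, 1.80-fold lower (1.22 to 2.71, counting error of 1 pair of libraries). An interval below 1 was found there for 13.7% of 10644 genes. Of 5 core pluripotency genes compared in that line, 2 were higher and 3 lower, with 1 interval below 1. In the Hey2 line Sox2 stood at 36.8 and 39.4 RPKM, with a ratio of 1.07 (0.962 to 1.19). The difference between the 2 inductions was not tested.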
